A study of Acipenser dabryanus with 12 samples.

Results

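The brain and the spleen of the Yangtze sturgeon (Acipenser dabryanus) were compared gene by gene, with the libraries of both organs matched by diet and by feeding state. Genes of the de novo assembly entered the comparison with at least 1 TPM (a transcript abundance scaled by length to a fixed library total) in at least 2 of the 8 libraries. That rule admitted 79623 of 280408 assembled genes, 28.4%, and these held 92.1% to 96.9% of the TPM of each library. The study fed juvenile fish, labelled 6 months old, a soybean oil or a fish oil diet for 7 weeks, each in its own pond, and sampled them 1 h before or 1 h after the daily meal. The 4 brain libraries were soybean oil before the meal, fish oil before the meal, soybean oil after the meal and fish oil after the meal, and the 4 spleen libraries were the same 4 conditions. No genetic modification or strain is named in the labels. Every condition is a single library per organ, pond coincides with diet, and the labels do not say whether a brain and a spleen library came from the same fish or how many fish a library holds. They mention 6 fish caught per pond and time, 3 RNA samples taken forward per group and time, and 45 libraries in the whole study. The libraries analysed are the 8 compared here and 4 from liver, and their relation to the 45 is not stated. Whether a library is 1 of those RNA samples or a pool of them is not stated. The p-values of the organ comparison therefore set the brain-spleen difference against its variation between the 4 conditions, with no replicate inside a condition. Diet, meal, pond, fish and technical spread can each add to that variation. The fit also draws each gene's variance towards that of genes of similar level. That prior had a median of 3.75 degrees of freedom, beside 3 residual ones per gene.

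The vertebrate brain is built mainly of neurons and glia, which carry signals along and between cells and insulate and nourish the signalling cells. The spleen filters the blood, removes worn-out erythrocytes and houses lymphocytes and phagocytes, and in fish it also stores blood. Fish erythrocytes keep their nucleus and contain RNA, so blood in any organ contributes to its transcripts. The deposited tables pair no gene ID with a name or a sequence. Defining markers of neurons, glia, erythrocytes or lymphocytes could therefore not be looked up, the organ labels were not checked against them, and the IDs below carry no role. The libraries did fall together by label. Across the genes tested, Pearson's r on log2(TPM + 1) was 0.787 to 0.848 among brain libraries, 0.813 to 0.860 among spleen libraries and 0.543 to 0.684 between the organs, where genes are not independent replicates. In bulk tissue, fewer cells of a type and less RNA per cell cannot be told apart.

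The brain spread its RNA over more genes than the spleen. Genes of at least 1 TPM numbered 52435, 78832, 66426 and 66103 in brain, in the order of conditions given above, and 48131, 62193, 60507 and 47226 in spleen. Brain had more in each of the 4 matched pairs, although the ranges overlapped. The 100 most abundant genes of a library took 34.0% ± 5.44 of its TPM in brain, against 45.2% ± 5.93 for spleen (SD, n = 4 each), and spleen was higher in each of the 4 pairs. In an exact two-sided permutation test that exchanges the organs within pairs, both differences had p = 0.125, the smallest p that 4 pairs can give. Sequencing depth is unknown because TPM does not keep it, and its part in the number of detected genes was not tested.

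On TPM as deposited, many more genes were called higher in brain than in spleen. In limma on log2(TPM + 1), with the 4 conditions as a block and a Benjamini-Hochberg adjusted p under 0.05, 14395 genes were higher in brain, 18.1% of those tested, and 5587 were higher in spleen, 7.02%. The other 59641 were not called, which does not show that they were equal. Called genes differed by a median log2 fold of 1.64 towards brain and 1.49 towards spleen. Both medians are over genes past the same threshold, so their likeness partly follows from the calls. The far ends differed: 1879 genes were called at least 8-fold higher in brain and 360 in spleen. At 32-fold or more there were 332 and 9. The sign was the same in all 4 matched pairs for 97.8% of the genes called higher in brain and 97.2% of those called higher in spleen, against 41.3% of all genes tested. Calls were made from these same pairs, so this agreement describes the calls and supports nothing further.

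**Figure D1:**
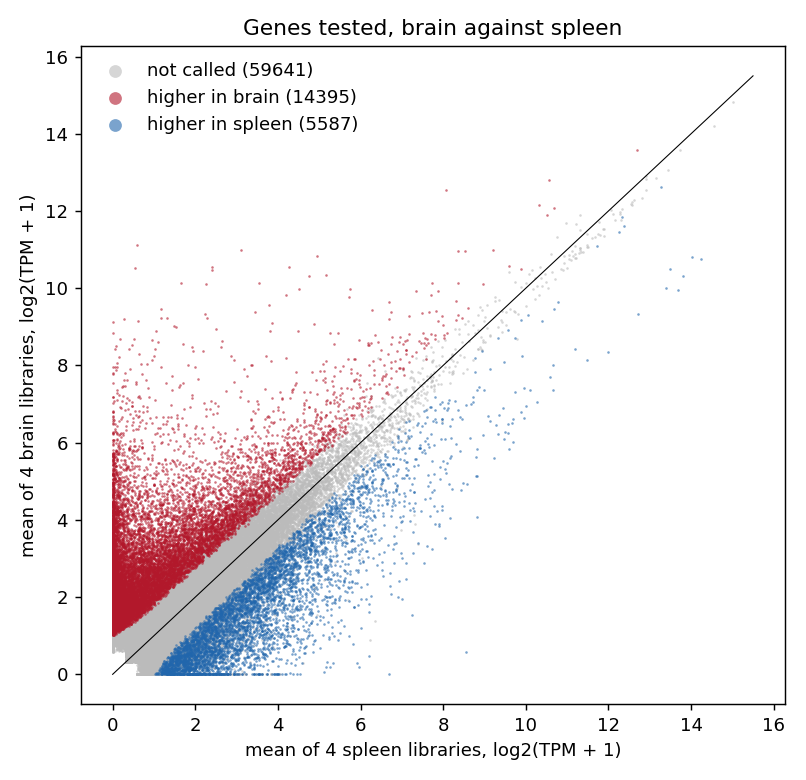
Each point is 1 of 79623 genes, placed by its mean over the 4 spleen libraries (x axis) and the 4 brain libraries (y axis), both as log2(TPM + 1), and coloured by its limma call; the line marks equal means. A band of brain genes, in red, runs up the left edge where spleen is near 0. At a brain mean of at least 10 TPM, 1401 of 4578 genes called higher in brain were under 1 TPM in spleen. At a spleen mean of at least 10 TPM, 180 of 2547 genes called higher in spleen were under 1 TPM in brain. The blue genes whose spleen mean reached 500 TPM lie well above 0 in brain.

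The size of the imbalance depended on how libraries were scaled. Brain took 72.04% of the calls on TPM as deposited, 62.79% after median-of-ratios scaling, which divides each library by its median ratio to the other libraries, and 51.16% after quantile normalization, which gives all libraries one distribution. The median gene lay at a log2 fold of 0.174, 0.038 and -0.104 under these scalings. On TPM as deposited, the median varied with level, from 0.28 between 2 and 5 TPM to -0.29 at 500 TPM and over. The value of 0.174 is therefore not an offset that holds for single genes. No gene called in one direction on TPM as deposited was called in the other under either scaling. Of the calls, 91.0% towards brain and 88.1% towards spleen were at least 2-fold. Shifts as small as those of the median gene could turn few of them, so this is a weak check. With 1 library left out, and so 3 matched pairs, 9104 to 11671 genes were higher in brain and 3072 to 4399 in spleen. The brain count was lowest without the brain of fish oil after the meal (9104) or before it (9178). The spleen count was lowest without fish oil before the meal (3072 without its brain, 3101 without its spleen) and moved by over 1.5 times without soybean oil before the meal (3679 and 3703, likewise) or after it (3597 and 3532).

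Among the genes that set the organs apart, 4 IDs are shown. They hold, in each direction, the largest fold kept by every pair and the largest difference in TPM. TRINITY_DN131745_c1_g2 was the gene with the largest difference kept by every pair. It stood at 1775, 2248, 2319 and 2578 TPM in the 4 brains and at 0.18, 0.95, 0.38 and 0.48 TPM in the 4 spleens. The organs did not overlap, and the liver libraries, outside this comparison, were as low as spleen at 0.28 to 0.37 TPM. Its log2 fold was 10.55 ± 0.19 (SE; limma adjusted p = 2.27e-05) on the TPM + 1 scale. With spleen this low the added value weighs on the fold, which was 12.01 with a pseudocount of 0.1.

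TRINITY_DN131640_c0_g1 had the largest difference in TPM towards brain. Its brain values were 7065, 8039, 9869 and 3821 TPM, and its spleen values 2099, 955, 2271 and 749 TPM. All brains were above all spleens, and the lowest brain and the lowest spleen were both those of fish oil after the meal. The matched log2 folds were 1.75, 3.07, 2.12 and 2.35. The fitted log2 fold was 2.32 ± 0.22 (SE; limma adjusted p = 0.000729). Liver held 354 to 682 TPM of it.

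TRINITY_DN125752_c2_g1 was the counterpart in spleen, where it stood at 476, 314, 399 and 305 TPM. Brain held 1.52, 0.08, 0.01 and 0.35 TPM, and liver 0.01 to 0.64 TPM. The highest brain value belonged to soybean oil before the meal, and it was still far below every spleen. The log2 fold, brain over spleen on the TPM + 1 scale, was -8.05 ± 0.24 (SE; limma adjusted p = 3.02e-05), and -10.05 with a pseudocount of 0.1.

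TRINITY_DN137651_c2_g1 was the spleen's largest difference in TPM, at 24017, 17879, 19435 and 16638 TPM in the spleens. The brains held 2994, 801, 1004 and 2099.6 TPM of the same gene, and the livers 961 to 1693 TPM. It was thus abundant in all 3 organs and most abundant in spleen, with no overlap between spleen and brain. Its log2 fold, brain over spleen, was -3.69 ± 0.29 (SE; limma adjusted p = 0.000381).

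**Figure D2:**
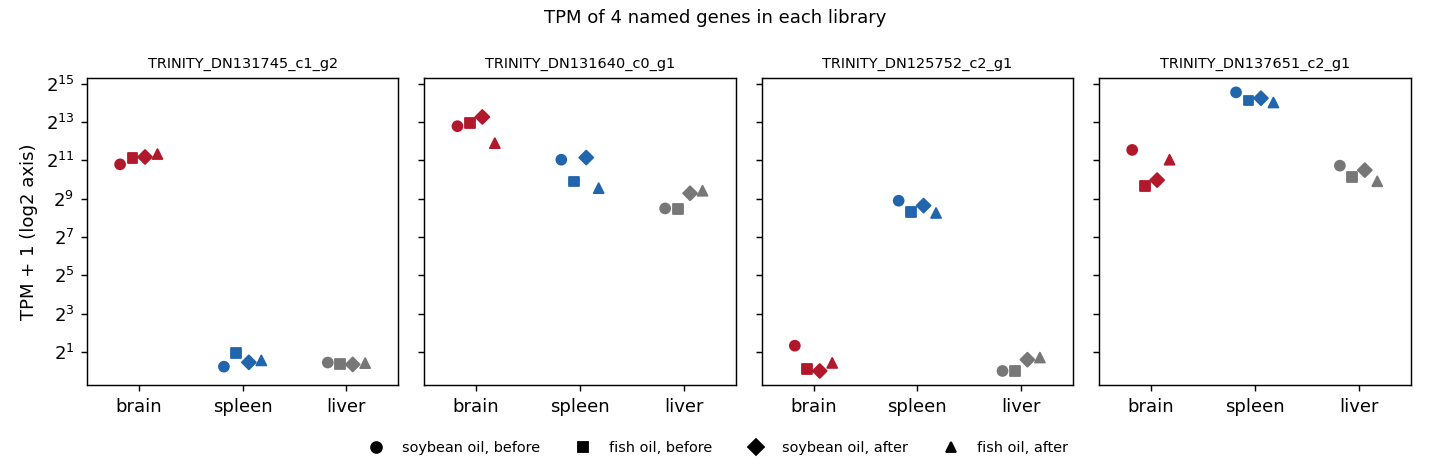
Each panel shows 1 gene in the 12 libraries, as TPM + 1 on a log2 axis, with the marker giving diet and feeding state. TRINITY_DN131745_c1_g2 and TRINITY_DN125752_c2_g1 are near 0 outside their organ, whereas TRINITY_DN131640_c0_g1 and TRINITY_DN137651_c2_g1 are shifted between organs and present in all of them.

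The share of genes called, on TPM as deposited, grew with their level up to 500 TPM. Below 2 TPM in the higher organ, 5.47% of 31490 genes were called higher in brain and 1.17% higher in spleen. Between 100 and 500 TPM these were 40.5% and 25.4% of 818 genes. In percentage points of the genes tested, brain's excess was 4.31 below 2 TPM, 15.0 between 100 and 500 TPM and 4.98 at 500 TPM and over. As a share of the calls it narrowed with level. Brain took 82.4% of the calls below 2 TPM, 66.0% between 10 and 20 TPM and 54.8% at 500 TPM and over, where 63 genes were higher in brain and 52 in spleen. The median fold of all tested genes lay at 0.28 between 2 and 5 TPM and turned to -0.29 at 500 TPM and over. The median standard error of the fold fell from 0.34 below 2 TPM to 0.19 at 500 TPM and over, so that low genes were also measured less well. The 1 added to each TPM also limits the fold that a gene below 2 TPM can reach. Few calls at low level therefore partly follow from the scale.

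**Figure D3:**
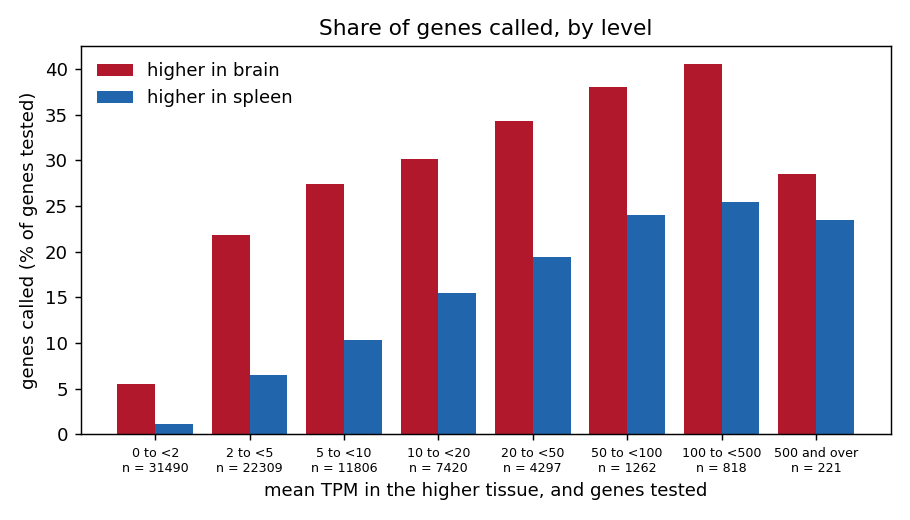
Bars give the percentage of genes tested that limma called higher in brain (red) or in spleen (blue), by the mean TPM in the higher organ, with the number of genes tested under each class. On TPM as deposited, brain bars are taller in every class; as a ratio, they stand highest over the spleen bars below 2 TPM (5.47% against 1.17%) and lowest at 500 TPM and over (28.5% against 23.5%).

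As a share of the list, the organs' overlap was largest among their 100 highest genes and smaller among their 10 and their 1000 highest. Of the 100 IDs with the highest means, 80 were in both organs' lists, and of the 1000 highest 580 were. Of these shared IDs, 66 of 80 (82.5%) and 382 of 580 (65.9%) were not called, against 74.9% of all genes tested. The 74.9% is not matched for level, so it does not show whether these shares are high or low for abundant genes. Below 2 TPM, 5.47% and 1.17% of genes were called higher in brain and spleen. At 500 TPM and over, 28.5% and 23.5% were. Of the 10 highest in each organ 4 were shared, and none of those 4 was called. The spleen's own 10 held 6 genes called higher in spleen, and the brain's 10 held 2 called higher in brain and 1 called higher in spleen.

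The genes that were abundant in spleen and called higher there were present in brain as well. All 52 whose spleen mean reached 500 TPM had a brain mean of 47.4 TPM or more, and the largest log2 fold among them was 3.9. Of the 63 genes called higher in brain whose brain mean reached 500 TPM, 45 had 10 TPM or more in spleen, 5 stayed under 1 TPM there, and the largest log2 fold was 10.55. Where the higher organ reached a mean of 100 TPM, the other organ was under 1 TPM for 79 of 394 brain genes, 20.1%, and for 2 of 260 spleen genes, 0.769%. These are counts over genes chosen by the same calls, with no test.

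**Figure D4:**
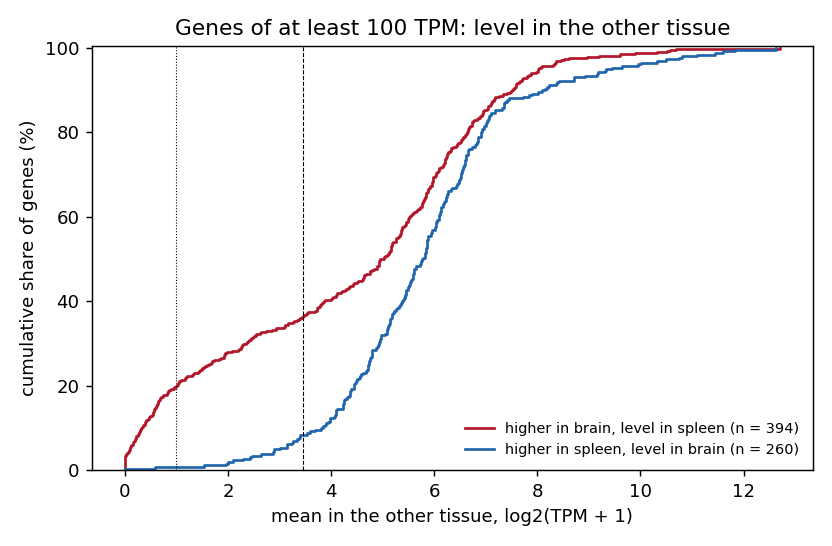
Cumulative share of genes (y axis) by their mean in the other organ as log2(TPM + 1) (x axis), for 394 genes called higher in brain and 260 called higher in spleen, each with at least 100 TPM in the higher organ; the dotted line marks 1 TPM and the dashed line 10 TPM. The red curve has reached 20.1% at the dotted line, where the blue one is at 0.769%.

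As shares of all TPM, both directions were similar in weight. The 14395 genes called higher in brain took 31.4% ± 1.95 of brain TPM and 6.60% ± 0.352 of spleen TPM (SD, n = 4 each). The 5587 genes called higher in spleen took 28.3% ± 2.93 of spleen TPM and 6.88% ± 0.786 of brain TPM. A large part of the spleen total came from few genes. The 25 genes called higher in spleen whose spleen mean reached 1000 TPM took 14.9%, 9.11%, 15.1% and 18.7% of the spleen libraries and 3.94%, 2.24%, 3.48% and 3.0% of the brain libraries. Both organs had their lowest share with fish oil before the meal, and brain its highest with soybean oil before the meal. That brain library was also the one that correlated most with the spleens, at an r of 0.628 to 0.684 across genes, against 0.543 to 0.586 for the brain of fish oil before the meal. Because TPM is a share, a larger share for these genes lowers that of all others in the same library.

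Genes close to restricted to one organ were nearly all brain genes. Restriction was set at 10 TPM or more in all 4 libraries of one organ and under 0.5 TPM in all 4 of the other. It was met by 472 genes for brain and 7 for spleen, out of 7068 and 5997 genes that reached 10 TPM in every library of the organ, or 6.68% and 0.117%. All were among the genes called, as the definition uses the same values. Libraries of the other organ missed the limit narrowly, with a highest value between 0.5 and 1 TPM, for another 174 brain genes and 17 spleen genes. After median-of-ratios scaling, a check added after the data were seen, the counts were 442 and 11. Leaving out any 1 library gave 484 to 631 for brain and 9 to 15 for spleen. As every library must meet a limit, leaving 1 out can only keep or raise these counts. The spleen count passed 1.5 times its value without the brain of fish oil before the meal (14), either brain after the meal (11 each), or the spleen of soybean oil (12) or fish oil (15) after the meal.

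Together, the brain-restricted genes took 1.67%, 2.31%, 2.45% and 2.53% of the 4 brain libraries, lowest with soybean oil before the meal. Their means ran from 11.4 to 586 TPM with a median of 28.6 TPM, and 22 were at 100 TPM or more in every brain. The liver libraries, which had no part in the definition, were under 0.5 TPM throughout for 381 of the 472, 80.7%, against 35.0% of all genes tested, and 8 of the 472 reached 10 TPM in every liver. The 35.0% is not matched for level, whereas the 472 all reached 10 TPM in every brain. The 2 most abundant are named by their level. TRINITY_DN140081_c1_g1 was at 479, 467, 825 and 572 TPM in brain, at most 0.45 TPM in spleen and at most 0.52 TPM in liver. TRINITY_DN125728_c2_g2 was at 569.9, 465, 574 and 639.8 TPM in brain and was listed at 0 in every spleen and liver library.

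The 7 spleen-restricted genes were of modest level, with means of 16.0 to 102 TPM and a median of 37.5 TPM. In liver, 3 of the 7 stayed under 0.5 TPM in every library. Of the 7, 2 were listed at 0 in all brains, and these are named after their values were seen. TRINITY_DN116035_c7_g4 stood at 190.7, 62.7, 18.4 and 136.8 TPM in the spleens, an uneven gene that was lowest with soybean oil after the meal, and was listed at 0 in every brain and liver. TRINITY_DN119566_c5_g1 stood at 11.8, 20.1, 21.6 and 10.6 TPM in the spleens and was listed at 0 in all brains and in all livers but that of fish oil before the meal, at 8.17 TPM. No fold is given against a group listed at 0.

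The liver also placed the wider groups of called genes. The median gene called higher in brain was at 5.62 TPM in brain, 0.44 TPM in spleen and 0.36 TPM in liver. The median gene called higher in spleen stood at 8.69 TPM there, against 1.85 TPM in brain and 1.04 TPM in liver. Liver was under 0.5 TPM in all 4 libraries for 45.7% of the genes called higher in brain and 21.9% of those called higher in spleen, with 35.0% for all genes tested between them. The 35.0% is not matched for level, as 31490 of the 79623 genes tested were below 2 TPM in the higher organ. The part of level in these shares was not tested.

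The matched pairs differed in how far apart the organs were. Genes at least 8-fold apart, on the TPM + 1 scale, numbered 1734 towards brain and 850 towards spleen with soybean oil before the meal, and 2812 and 1001 with fish oil before the meal. After the meal they numbered 2773 and 1146 with soybean oil, and 3326 and 715 with fish oil. The fish oil pair after the meal thus had the strongest lean to brain, at 4.65 brain genes per spleen gene, and soybean oil before the meal the weakest, at 2.04. After median-of-ratios scaling these ratios were 1.82 and 1.83, and those of the other pairs 2.42 and 2.18. The fish oil pair after the meal thus went from the highest ratio to the lowest. This scaling draws the median log2 fold of each pair towards 0, from 0.41 to 0.0 in that pair. That the pairs lay closer together therefore partly follows from the scaling. Each pair still had more brain genes than spleen genes.

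**Figure D5:**
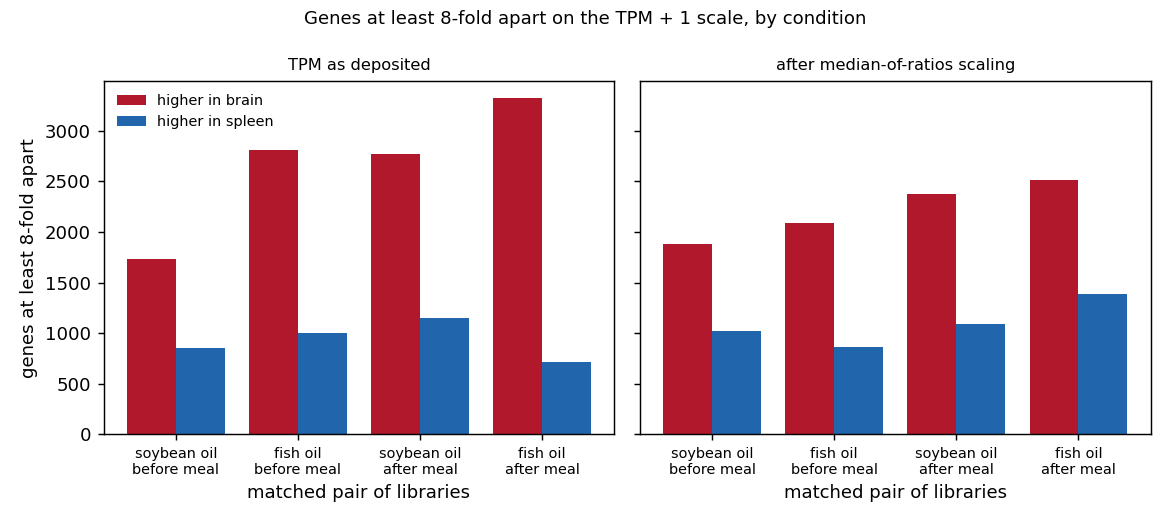
Bars count the genes at least 8-fold higher in brain (red) or in spleen (blue) in each matched pair of libraries, on TPM as deposited (left) and after median-of-ratios scaling (right). The red bars exceed the blue ones in all 4 pairs on both sides; the fish oil pair after the meal goes from 3326 and 715 to 2517 and 1386.

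Differences of at least 8-fold recurred in all 4 conditions for 1072 genes towards brain and 102 towards spleen on the TPM + 1 scale. These counts were 898 and 179 after quantile normalization, 999 and 160 after median-of-ratios scaling, and 4622 and 487 with a pseudocount of 0.1, so their size rested on these choices while brain had more in each. Differences of at least 2-fold recurred for 7457 and 2110 genes on the TPM + 1 scale. By contrast 7627 genes, 9.58% of those tested, were at least 2-fold higher in brain in 1 pair or more and at least 2-fold higher in spleen in another. For the median gene tested, the highest and the lowest of the 4 matched log2 folds lay 1.32 apart, and for genes called higher in brain or spleen 1.10 and 1.18. Within an organ, the median SD of log2(TPM + 1) over the 4 libraries was 0.39 in brain and 0.31 in spleen for genes of at least 100 TPM in that organ, and 0.47 and 0.42 for those of 5 to 20 TPM.

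Whether the brain-spleen difference changed with diet or with the meal was tested by the interaction of organ with each. No gene passed. Limma called 0 genes, 0%, for diet, with a lowest adjusted p of 0.894 and 4289 genes, 5.39%, at an unadjusted p under 0.05. For the meal it called 0 genes, 0%, with a lowest adjusted p of 0.794 and 4852 genes, 6.09%, at an unadjusted p under 0.05. These tests rest on 4 matched differences with 1 residual degree of freedom per gene and a median SE of 0.534 on the log2 scale, so 0 calls do not show that the organs differ alike in every condition.

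The widest of these shifts belonged to genes that were on in some libraries and at 0 in others. TRINITY_DN118643_c3_g1 was at 11.8 and 9.52 TPM in the soybean oil brains before and after the meal while the fish oil brains held 12.6 and 0 TPM. In spleen it was listed at 0 with soybean oil, and the fish oil spleens held 55.4 and 21.6 TPM. Brain therefore exceeded spleen with soybean oil and spleen exceeded brain with fish oil, with a difference between diets of 6.81 ± 0.71 on the log2 scale (SE; limma adjusted p = 0.894).

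TRINITY_DN135768_c0_g1 had the opposite pattern. It was at 7.58 and 5.21 TPM in the fish oil brains and at 27.7 and 6.76 TPM in the soybean oil spleens, before and after the meal, and was listed at 0 in the other 4 of these libraries (difference -6.77 ± 0.76, SE; limma adjusted p = 0.894). Both genes were listed at 0 in all livers.

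For the meal, TRINITY_DN99105_c0_g2 was at 4.48 and 0 TPM in the brains before it, soybean oil first, and reached 71.4 and 24.7 TPM afterwards. Spleen held 5.88 TPM with fish oil before the meal and was listed at 0 otherwise (difference 5.59 ± 1.08, SE; limma adjusted p = 0.794). TRINITY_DN124889_c7_g1 was at 40.1 and 48.0 TPM in brain before the meal, then 18.5 and 0 TPM after it, whereas the spleens were listed at 0 before it and held 7.21 and 34.3 TPM afterwards (difference -7.43 ± 1.80, SE; limma adjusted p = 0.794). The livers held 67.6, 106, 79.2 and 74.0 TPM of TRINITY_DN124889_c7_g1, more than any brain or spleen. They held 4.62, 3.67, 4.16 and 0 TPM of TRINITY_DN99105_c0_g2. These 4 IDs were picked for the size of their shift, so their separation by diet or meal was fixed by the choice. Each has brain or spleen libraries listed at 0, so the size of its shift, on the TPM + 1 scale, rests on the added value.

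Some assembled neighbours went opposite ways. Trinity groups contigs that share sequence into components and splits each component into genes, which may be separate genes, copies of one gene or fragments of it. Sturgeon genomes carry many duplicated genes from past genome duplications, and whether the IDs of a component are such copies was not tested. Of the genes tested, 47.1% shared their component with another tested gene. Of 2663 components with 2 or more called genes, 1790, 67.2%, held calls towards brain alone, 522, 19.6%, towards spleen alone and 351, 13.2%, both. Most thus held calls in a single direction, where brain took 72.04% of all calls. How often unrelated called genes go opposite ways was not computed. When the TPM of all IDs of a component was summed, 249 of these 351 components were less than 2-fold apart between the organs. Another 43 were at least 2-fold higher in brain and 59 at least 2-fold higher in spleen. Because the 351 were chosen for opposite calls, sums that cancel partly follow from the choice.

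The component with the widest opposite pair was TRINITY_DN114986_c0, with 8 IDs. TRINITY_DN114986_c0_g5 was at 67.2, 50.9, 29.6 and 3.61 TPM in brain and listed at 0 in every spleen but that of fish oil before the meal, at 0.2 TPM. Its log2 fold, on the TPM + 1 scale, was 4.67 ± 0.61 (SE; limma adjusted p = 0.00234), or 7.56 with a pseudocount of 0.1, and all brains were above all spleens. TRINITY_DN114986_c0_g2 was at 24.2, 20.3, 9.53 and 15.7 TPM in spleen and at 0.12, 0.13, 0.47 and 0.19 TPM in brain, with a fold of -3.85 ± 0.32 (log2, SE; limma adjusted p = 0.000451), or -5.78 with a pseudocount of 0.1. Summed over its IDs, the component held 69.2, 61.6, 32.4 and 8.41 TPM in brain and 32.9, 23.2, 10.7 and 17.0 TPM in spleen, so the organs overlapped at the level of the component while its 2 named IDs were separated.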

How the data were processed

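RNA from brain, liver and spleen was sequenced as 125-bp paired-end reads and assembled with Trinity, per the labels' protocols, which describe extraction from liver although the samples are labelled by 3 organs. The deposited values are TPM per assembled gene, 1 column per library, as the authors made them; no quantification tool or pooling of fish is stated in the sources used here. Depth cannot be read from TPM, so the error of counting reads, which the values still carry, could not be modelled. Genes at 1 TPM or more in at least 2 of the 8 brain and spleen libraries were tested on log2(TPM + 1), a scale that understates folds of low genes, with limma 3.58.1 (trend, robust) in R 4.3.3 across all genes, with the 4 conditions as a block (3 residual degrees of freedom), Benjamini-Hochberg adjustment and a threshold of 0.05. The fits were also run on simulated data, with independent normal errors per gene and no shift between libraries. That run therefore says nothing on the scaling of libraries. Members, lists and rules were chosen with earlier results of these data known. Named IDs are, per direction, that with the largest value of its smallest matched fold and that with the largest difference in mean TPM among called genes of one sign in all pairs; for interactions without a call, the largest shift at a mean of at least 5 TPM whose matched differences separate the levels; for components, the widest opposite pair. The most abundant restricted IDs were added after their values were seen. Marker lists could not be used because no ID is named. Liver libraries served for levels and 1 alternative fit. Alternatives changed scaling, pseudocount, filter, prior, block, libraries, minimum fold and feature. Summaries used Python 3.11.15, pandas 2.3.3, numpy 2.4.6 and scipy 1.17.1, and plots matplotlib 3.10.9.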

Additional observations from a re-analysis of the deposited data

Results flagged for a closer look

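Among 50 groups of 4 libraries, 3 held a library far from the other 3 by Dixon's ratio, where chance flags about 1 in 20 independent normal groups. The brain of fish oil after the meal had 876 genes of at least 100 TPM, against 769 to 781 in the other brains. TRINITY_DN99105_c0_g2 was at 5.88 TPM in the spleen of fish oil before the meal and listed at 0 in the other spleens. TRINITY_DN114986_c0_g5 was at 0.2 TPM in that same spleen library and listed at 0 in the others. A single value above 0 always gives the highest possible ratio.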

How the results depend on the processing

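The 6 IDs named for the organ difference or the component pair were chosen for large differences, so a kept sign was partly fixed by the choice. Alternatives in filter, prior, block, added liver libraries or minimum fold returned the same fold, so their values are not separate checks. Within these limits, the log2 folds of the 6 IDs kept their sign and their call in all 132 values under the alternatives. Their size rested on the pseudocount where 1 organ was near 0: at 0.1 they were 12.01 for TRINITY_DN131745_c1_g2, -10.05 for TRINITY_DN125752_c2_g1, 7.56 for TRINITY_DN114986_c0_g5 and -5.78 for TRINITY_DN114986_c0_g2. Quantile normalization gave 10097 genes higher in spleen. Without a filter 7847 and 2378 genes were higher in brain and spleen, at a mean of at least 5 TPM 5689 and 3384, with 88 components of both directions, and against a minimum log2 fold of 1, 4216 and 1037. Leaving out 1 library gave 9104 to 11671 genes higher in brain and 3072 to 4399 in spleen, and leaving out both libraries of a condition 9325 to 11481 and 3060 to 4395 (9438 for brain without fish oil before the meal; 3658 and 3557 for spleen without soybean oil before or after it). With the block, a lone partner adds nothing to the fold, so the limma fits without 1 library rest on 3 pairs. Leaving out 1 library also gave 484 to 631 and 9 to 15 restricted genes, counts that could only stay or rise. Restricted genes numbered 1005 and 34 at 5 TPM, 200 and 4 at 20 TPM, and 127 and 2 when listed at 0 in the other organ; median-of-ratios scaling gave 11 for spleen. Genes 8-fold apart in all conditions were 179 for spleen after quantile normalization, 160 after median-of-ratios scaling, and 4622 and 487 with a pseudocount of 0.1; these last alternatives were chosen after seeing the data. The interaction tests called 0 genes in all 6 alternatives each, with lowest adjusted p (limma) of 0.138 for diet and 0.0948 for the meal, both at a mean of at least 5 TPM. Without the replicate block 14827 and 5447 genes were higher in brain and spleen. Deviations of matched libraries from their organ's mean correlated at -0.036 to 0.188, and 3 of 4 brain libraries correlated best with the spleen of their own condition, a hint from the data and not the design. Interaction fits were not repeated without single libraries; as reported, that model would then have no residual degrees of freedom. Unknown depth limits every statement on genes listed at 0.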
